A study of Mus musculus with 12 samples.

Results

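The Sox genes encode transcription factors with an HMG box, and 10 of them (*Sox1*, *Sox2*, *Sox3*, *Sox4*, *Sox7*, *Sox9*, *Sox11*, *Sox15*, *Sox17* and *Sox18*) were followed through the conversion of mouse embryonic stem (ES) cells into extraembryonic endoderm-like (XEN-like) cells. They were picked by name, for the exchange of *Sox2* for *Sox17* and *Sox7* and for possible replacement of a lost *Sox7*, and were read from every probe annotated with one of these names, which gave 15 probes for the 10 genes among 34836 gene names on the array. RNA of 4 groups had been hybridized, with 3 arrays each: ES and XEN-like cells that were *Sox7* (+/−), and ES and XEN-like cells that were *Sox7* (−/−). All of them carried Gata6-GR, a transgene for Gata6 fused to the glucocorticoid receptor, and RNA was taken on day 4 of culture without dexamethasone (Dex; ES cells) or with it (XEN-like cells). Per the methods of the study, the *Sox7* (−/−) line had been derived from a *Sox7* (+/−) line by drug selection, so each genotype stands for its cell line and not for several clones. Neither *Sox7* (+/+) cells nor cells without the transgene were part of the series, and the labels do not state that the 3 arrays of a group came from separate cultures, so the tests measure the spread between these arrays only. In RNA of whole cultures, fewer cells of a type and less RNA per cell cannot be told apart.

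Sox proteins bind short DNA words related to AACAAT through the HMG box and usually act with a partner factor bound beside them. The SoxB1 proteins Sox1, Sox2 and Sox3 are best known from pluripotent and neural cells, and Sox2 acts with Oct3/4 in ES cells to keep genes such as *Fgf4* and *Nanog* active. The SoxF proteins Sox7, Sox17 and Sox18 are best known from endoderm and blood vessels, where their functions overlap in part, and Sox17 and Sox7 mark the primitive endoderm lineage that XEN cells represent. Gata6 is the master regulator of that lineage.

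Levels below are percentages of the 75th percentile of the processed signals of the same array, so that 100% is as bright as the probe at that percentile. A probe has its own brightness, so levels were compared between arrays and never between probes. A gene was read from its brightest probe unless another is named. A probe was tested when it was well above background, by the flag of the scanner software, on all 3 arrays of at least 1 group, and a difference was called when limma's adjusted p was under 0.05 and the difference over 2-fold. The 75th percentile of the arrays ranged from 252.3 to 415.9 intensity units, no spot was saturated, and between 41.7% and 52.3% of the spots of an array were well above background. The 12 arrays lay on 2 slides, and slide 1 held the 3 arrays of *Sox7* (−/−) ES cells and 1 of *Sox7* (−/−) XEN-like cells, so slide and genotype were largely confounded. Replicate 3 of the *Sox7* (+/−) XEN-like cells stood somewhat apart, and the lowest correlation between arrays of the same group (r = 0.982, over 25938 probes) was in this group.

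The disrupted gene was checked first. In *Sox7* (+/−) ES cells, *Sox7* (probe at chr14:64569419-64569478, mm9, in the 3′ part of the transcript) read 224%, 218% and 229%. In *Sox7* (+/−) XEN-like cells it read 490%, 495% and 688%. In *Sox7* (−/−) cells it was well above background on none of 6 arrays, at 1.82%, 2.01% and 2.57% without Dex and at 2.35%, 1.53% and 1.48% with it. Levels of the genotypes therefore did not overlap, and all 6 arrays labelled *Sox7* (−/−) lacked a measurable *Sox7* signal. The difference was at least 24.6-fold between ES cells (log2 difference −6.73, SE 0.20, adjusted p = 1.32e-08) and at least 72.6-fold between XEN-like cells (−8.30, SE 0.20, adjusted p = 7.48e-09). These bounds set the lowest signal well above background of each array in place of the unmeasured level. Per the methods of the study, the vector replaced the coding region in both exons, while the probe starts at base 3115 of the transcript. Whether its target was itself deleted was not determined here, and a probe beyond the deleted part would report the end of the transcript and not the loss of the coding sequence.

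**Figure D1:**
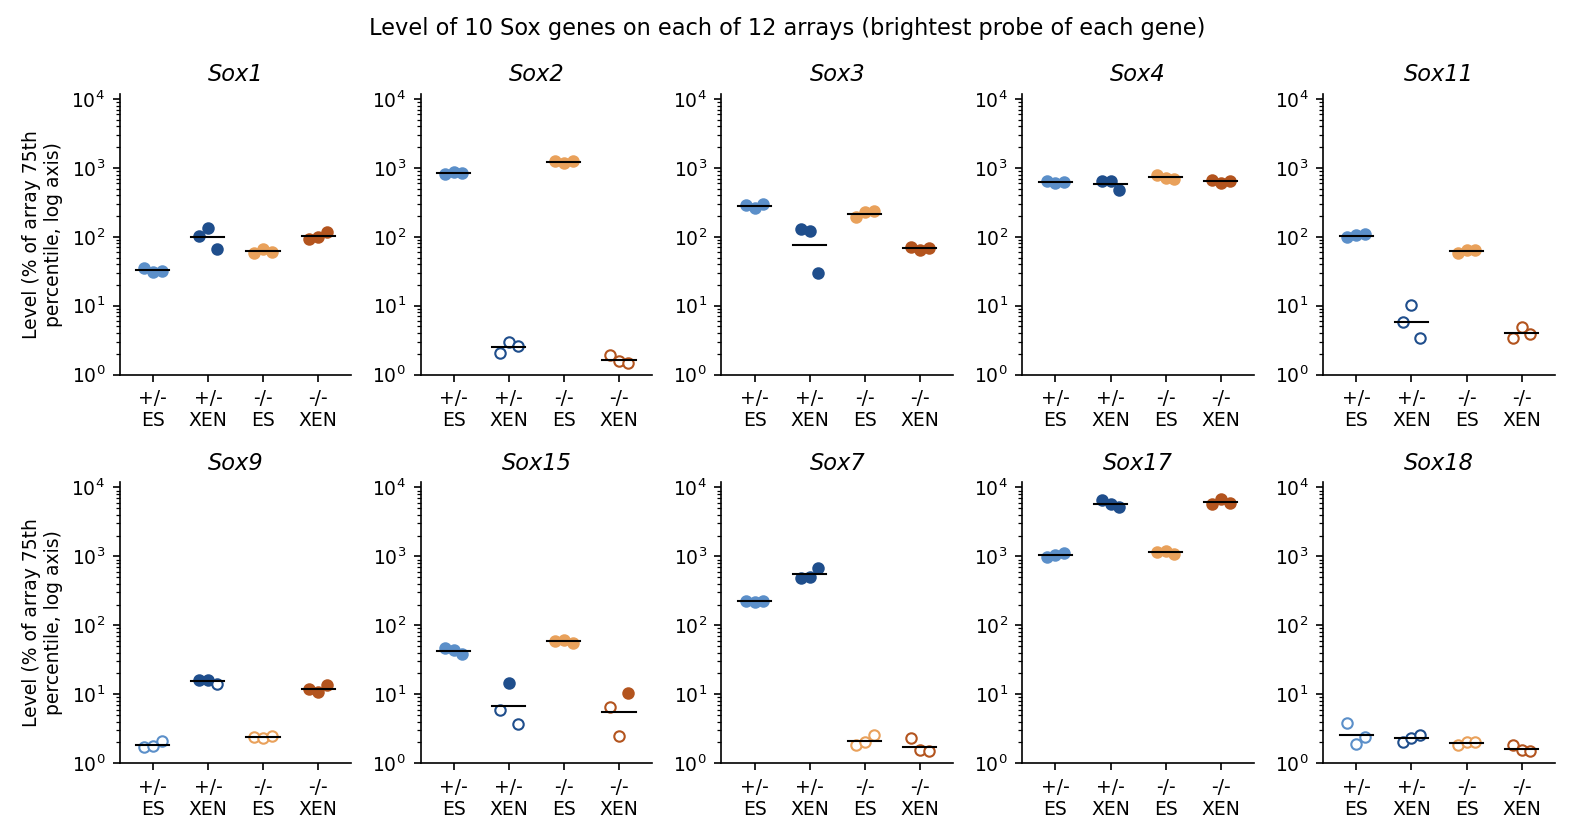
Level of each of the 10 Sox genes (percent of the array's 75th percentile, log axis) on each array of the 4 groups, where a filled point is well above background, an open point is not, and the line is the mean of the log values of 3 arrays. *Sox2* and *Sox11* drop to open points in the XEN-like cells of both genotypes, *Sox17* sits between 966% and 1136% in *Sox7* (+/−) ES cells and between 5194% and 6637% in the XEN-like cells of that genotype, and *Sox18* has open points only.

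The Dex response is the comparison of XEN-like with ES cells. The genes had been picked by name with earlier results of these data known, so their counts do not stand for the whole family. In *Sox7* (+/−) cells, 8 of the 9 Sox genes tested were called: *Sox1*, *Sox7*, *Sox9* and *Sox17* rose and *Sox2*, *Sox3*, *Sox11* and *Sox15* fell. Over all 25938 probes tested, 11.0% were called higher and 14.0% lower in this comparison. In *Sox7* (−/−) cells, 6 of 9 were called, with *Sox9* and *Sox17* up and the same 4 genes down, where 14.6% of all probes were called higher and 14.2% lower. *Sox4* was called in neither genotype, and *Sox18* was not tested. The median log2 difference of the 9 genes was −0.08 in *Sox7* (+/−) cells and −0.27 in *Sox7* (−/−) cells, where it is the reading of *Sox7* below background, beside 0.16 and 0.07 over all probes tested.

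*Sox2*, the SoxB1 gene required for pluripotency, fell from a bright signal to one below background in both genotypes. It read 812%, 884% and 846% in *Sox7* (+/−) ES cells and 2.09%, 2.99% and 2.62% in the XEN-like cells made from them. In *Sox7* (−/−) cells it went from 1273%, 1161% and 1242% to 1.93%, 1.56% and 1.49%. No array of XEN-like cells had *Sox2* well above background, and every array of ES cells did. The fall was at least 77.4-fold in *Sox7* (+/−) cells (log2 difference −8.38, SE 0.14, adjusted p = 3.63e-11) and at least 161.6-fold in *Sox7* (−/−) cells (−9.54, SE 0.14, adjusted p = 1.82e-11). Mean readings were 847% ± 35.9 in ES and 2.57% ± 0.46 in XEN-like cells that were *Sox7* (+/−) (SD, n = 3). In *Sox7* (−/−) cells they were 1225% ± 57.7 and 1.66% ± 0.24 (SD, n = 3). The XEN-like readings were below background. The bounds use the lowest signal well above background of each array in their place.

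*Sox3*, an X-linked SoxB1 gene close to *Sox2* in function, fell less than its relative and stayed measurable in all 12 arrays. Its level was 287%, 260% and 299% in *Sox7* (+/−) ES cells against 130%, 120% and 29.6% in XEN-like cells. In *Sox7* (−/−) cells it was 194%, 226% and 234% against 72.1%, 63.7% and 69.2%. ES and XEN-like cells did not overlap in either genotype, and replicate 3 of the *Sox7* (+/−) XEN-like cells lay far below the other two. The fall was 3.65-fold in *Sox7* (+/−) cells (log2 difference −1.87, SE 0.45, adjusted p = 0.00444) and 3.19-fold in *Sox7* (−/−) cells (−1.67, SE 0.45, adjusted p = 0.00748). With slide as a block the second of these was no longer called (−1.59). That value sets only replicate 1 of the *Sox7* (−/−) XEN-like cells against the ES cells, so it does not show an effect of slide.

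*Sox1*, the third SoxB1 gene and a marker of neural precursors, moved the opposite way. Without Dex it read 35.5%, 31.3% and 32.4% in *Sox7* (+/−) cells, and with Dex 104%, 136% and 67.3%. *Sox7* (−/−) cells had 59.2%, 66.2% and 60.2% without Dex and 94.1%, 100.5% and 117% with it. The groups did not overlap in either genotype. The rise was 2.98-fold in *Sox7* (+/−) cells (log2 difference 1.58, SE 0.21, adjusted p = 8.53e-05), and in *Sox7* (−/−) cells the difference of 1.67-fold stayed under the 2-fold limit (0.74, SE 0.21, adjusted p = 0.00974). A second *Sox1* probe nearer the middle of the transcript was well above background on only 5 of 12 arrays. Its differences had the same direction and were not called: 0.83 on the log2 scale in *Sox7* (+/−) cells (adjusted p = 0.168), and at least 1.71-fold in *Sox7* (−/−) cells (adjusted p = 0.0982), whose ES cells were below background on it. The call of *Sox1* in *Sox7* (+/−) cells thus rested on 1 probe. Of 5 other neural ectoderm markers tested, *Ncam1* was called higher and *Nes*, *Zic1* and *Otx2* lower in *Sox7* (+/−) cells. Of all probes tested, 11.0% were called higher and 14.0% lower there. *Pax6* and *Neurog2* were not well above background on any array. The probes of *Zic1* disagreed, with log2 differences of −1.56 for the brightest and 1.19 for the other (adjusted p = 2.03e-05 and 0.00162), and the second *Otx2* probe was not called (−0.76, adjusted p = 0.0309).

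The SoxC genes differed from each other. *Sox11*, known from neural progenitors and early embryos, read 98.4%, 105% and 110% in *Sox7* (+/−) ES cells and 5.85%, 10.1% and 3.35% in XEN-like cells. *Sox7* (−/−) cells gave 57.8%, 64.3% and 64.7% against 3.36%, 4.96% and 3.86%. It was well above background on every array of ES cells and on none of XEN-like cells. The fall was at least 9.52-fold in *Sox7* (+/−) cells (log2 difference −4.16, SE 0.32, adjusted p = 1.39e-06) and at least 8.20-fold in *Sox7* (−/−) cells (−3.96, SE 0.32, adjusted p = 1.57e-06). *Sox4*, its widely expressed relative, read 650%, 600% and 626% in *Sox7* (+/−) ES cells and 656%, 654% and 479% in XEN-like cells, and these groups overlapped. In *Sox7* (−/−) cells it read 791%, 709% and 697% against 676%, 611% and 653%, which did not overlap. Neither difference was called (−0.08, 95% interval −0.35 to 0.18, and −0.18, −0.44 to 0.09), and both intervals lie inside 2-fold.

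*Sox9*, a SoxE gene, and *Sox15*, the only SoxG gene of the mouse and one expressed in ES cells, moved in opposite directions. *Sox9* was not well above background on any array of ES cells, where it read 1.71%, 1.79% and 2.08% in *Sox7* (+/−) and 2.37%, 2.35% and 2.47% in *Sox7* (−/−) cells. It read 16.1%, 16.3% and 14.2% in *Sox7* (+/−) XEN-like cells, of which replicate 3 was not well above background, and 11.8%, 10.66% and 13.6% in *Sox7* (−/−) XEN-like cells. Every XEN-like array was above every ES array. The rise was called in both genotypes (log2 differences 3.06 and 2.32, SE 0.11 each, adjusted p = 4.67e-09 and 2.5e-08), and the dim readings without Dex bound it at 2.26-fold or more in *Sox7* (+/−) cells and 1.31-fold or more in *Sox7* (−/−) cells. The signal stayed dim, and with normexp background correction both differences were under 2-fold (0.94 and 0.63). *Sox15* read 47.3%, 43.4% and 38.1% in *Sox7* (+/−) ES cells and 5.87%, 14.5% and 3.67% in XEN-like cells. *Sox7* (−/−) cells gave 59.8%, 61.0% and 56.1% against 6.49%, 2.46% and 10.4%. Only 1 of 3 XEN-like arrays of each genotype was well above background, and ES and XEN-like cells did not overlap. The measured log2 difference was −2.66 on the log2 scale in *Sox7* (+/−) cells (SE 0.54, adjusted p = 0.00164) and −3.42 in *Sox7* (−/−) cells (SE 0.54, adjusted p = 0.000259). With normexp background correction the first of these came under 2-fold (−0.88).

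Promoter sequence was looked up for all 10 genes in a RefSeq table (build GRCm38.p6), which held 5 of them, and the 250 bases before the start are shown for the 3 that fell in both genotypes. Both strands were searched for 4 words of the GATA family (AGATAA, besides that TGATAA, the variant AGATAG and the variant TGATAG), for the Sox word AACAAT, its longer form AACAAAG and the octamer ATGCAAAT of the Oct factors. The 4 GATA words share the letters GATA and cannot lie on the same copy of it. Words found are in capitals, on the strand of the gene.
Sox2: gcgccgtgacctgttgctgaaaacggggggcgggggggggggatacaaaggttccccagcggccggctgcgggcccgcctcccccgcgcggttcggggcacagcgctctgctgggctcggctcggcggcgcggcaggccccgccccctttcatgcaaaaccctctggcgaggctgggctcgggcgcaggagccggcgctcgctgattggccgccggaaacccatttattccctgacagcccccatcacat
Sox11: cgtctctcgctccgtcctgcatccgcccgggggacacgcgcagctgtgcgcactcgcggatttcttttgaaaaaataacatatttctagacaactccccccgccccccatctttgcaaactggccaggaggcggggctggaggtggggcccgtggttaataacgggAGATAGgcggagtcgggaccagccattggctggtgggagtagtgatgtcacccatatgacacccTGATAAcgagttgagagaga
Sox15: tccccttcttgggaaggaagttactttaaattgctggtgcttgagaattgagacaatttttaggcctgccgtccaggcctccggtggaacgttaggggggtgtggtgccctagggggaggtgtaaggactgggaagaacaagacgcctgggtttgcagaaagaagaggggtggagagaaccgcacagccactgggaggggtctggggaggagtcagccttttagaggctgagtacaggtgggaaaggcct
These windows lie at chr3:34649745-34649994 (plus strand, *Sox2*), chr12:27342719-27342968 (minus strand, *Sox11*) and chr11:69654787-69655036 (plus strand, *Sox15*). The *Sox11* window held AGATAG, with its first base 84 bases before the start, and TGATAA, with its first base 20 bases before it. None of the 7 words was found in the windows of *Sox2* and *Sox15*, nor in those of *Sox1* and *Sox4*. Of all 32851 promoter windows of this length, 26.5% held a GATA word, 9.42% held AACAAT, 5.03% held AACAAAG and 1.60% held ATGCAAAT. The *Sox2* window is 72% G and C, beside a median of 52.4% over all windows, and a word that is absent from this stretch says nothing of binding elsewhere.

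*Sox17*, a SoxF gene that marks the primitive endoderm lineage, rose in both genotypes. It was already well above background without Dex, at 966%, 1061% and 1136% in *Sox7* (+/−) and 1169%, 1210% and 1092% in *Sox7* (−/−) ES cells. In XEN-like cells it read 6637%, 5671% and 5194% in *Sox7* (+/−) and 5698%, 6862% and 5890% in *Sox7* (−/−) cells. Every XEN-like array was over 4 times as bright as any ES array, while the genotypes overlapped in both states. The rise was 5.52-fold in *Sox7* (+/−) cells (log2 difference 2.46, SE 0.11, adjusted p = 2.59e-08) and 5.30-fold in *Sox7* (−/−) cells (2.41, SE 0.11, adjusted p = 2.32e-08). *Sox7* itself rose 2.46-fold in *Sox7* (+/−) cells (1.30, SE 0.20, adjusted p = 0.000261), with no overlap between the levels given above. Scaled to the spike-in controls of the arrays, this rise came under 2-fold (0.82, adjusted p = 0.00364). In *Sox7* (−/−) cells the unmeasured *Sox7* signal gave no fold.

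*Sox18*, the remaining SoxF gene and one best known from endothelium, was well above background on none of the 12 arrays. It read 3.79%, 1.88% and 2.39% in *Sox7* (+/−) ES cells, and at most 2.57% in *Sox7* (+/−) XEN-like cells. Its highest reading was 2.03% in *Sox7* (−/−) ES cells and 1.86% in *Sox7* (−/−) XEN-like cells. All of these lie below the lowest signal well above background of any array, which ranged from 5.78% to 12.2%. At this signal a level of *Sox18* below that limit was not detectable in any group. It was therefore not tested, and no fold was computed.

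**Figure D2:**
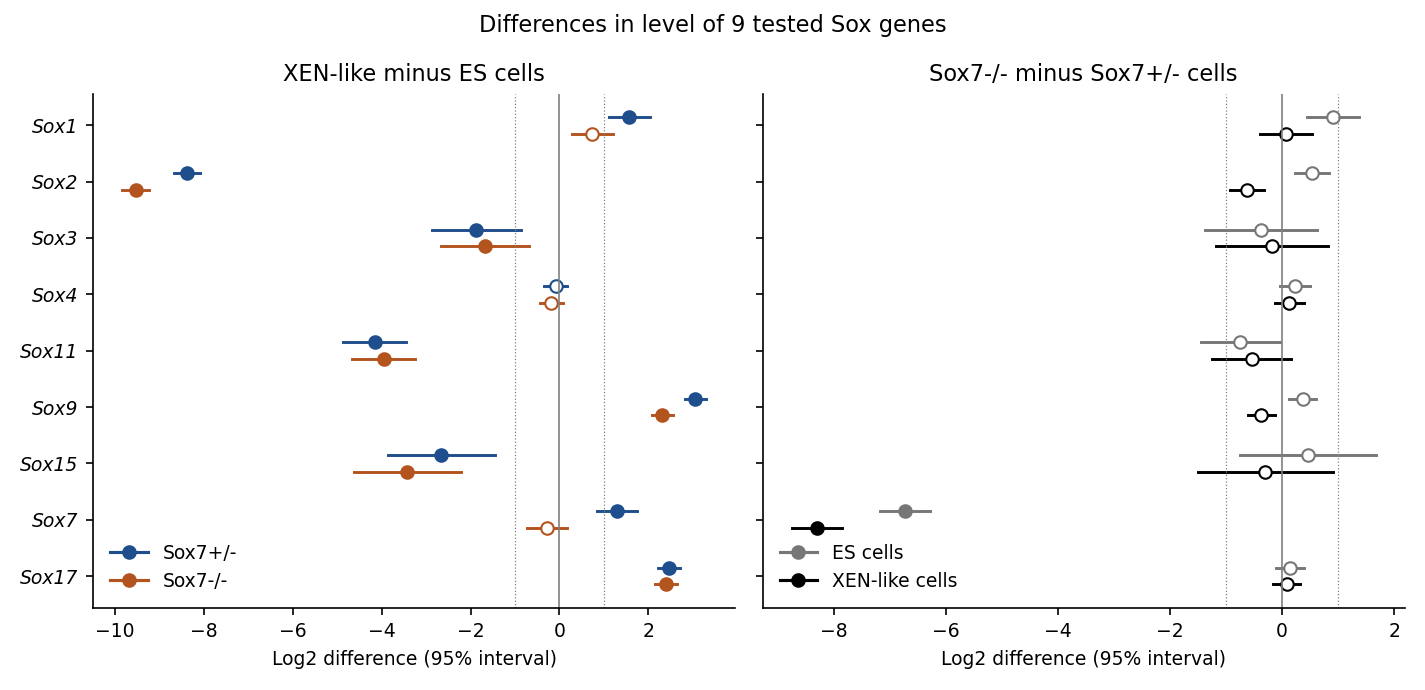
Log2 difference (x axis, with its 95% interval) of the 9 tested Sox genes between XEN-like and ES cells of each genotype (left) and between *Sox7* (−/−) and *Sox7* (+/−) cells in each state (right), where filled points are called, dotted lines mark 2-fold and a point against a group below background is the fitted value and not a bound. On the right only *Sox7* is called, and the points of *Sox17* lie at 0.14 in ES cells and 0.08 in XEN-like cells.

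The comparison of *Sox7* (−/−) with *Sox7* (+/−) cells asks whether another family member was higher where *Sox7* was lost. Among the 9 Sox genes tested, *Sox7* was the only one called, lower in both states, and none was called higher. Over all probes tested, 3.86% were called higher and 3.63% lower between XEN-like cells, and 1.94% higher and 6.66% lower between ES cells. For *Sox17* the log2 difference was 0.08 between XEN-like cells (95% interval −0.17 to 0.32, adjusted p = 0.611) and 0.14 between ES cells (−0.11 to 0.38, adjusted p = 0.34). The second *Sox17* probe was somewhat higher in *Sox7* (−/−) cells, with no overlap between the genotypes, at 0.40 in XEN-like cells (0.20 to 0.60, adjusted p = 0.00807) and 0.37 in ES cells (0.16 to 0.57, adjusted p = 0.00879). Both probes thus leave room for a rise in *Sox17* of well under 2-fold, and they disagree on whether it passed the test. In XEN-like cells the upper ends of the intervals of the brightest probes were 0.82 for *Sox3*, 0.53 for *Sox1* and 0.40 for *Sox4*, and that of the second *Sox1* probe was 1.92. In ES cells they were 1.67 for *Sox15* and 1.37 for *Sox1*. A rise of over 2-fold in *Sox1* or *Sox15* is therefore within these intervals. *Sox11* was well above background on none of the 6 XEN-like arrays and *Sox15* on 2 of them, so no limit on a rise of either in these cells is given.

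Smaller genotype differences passed the adjusted p without reaching 2-fold. In ES cells, *Sox1* was 1.87-fold higher in *Sox7* (−/−) cells (log2 difference 0.91, SE 0.21, adjusted p = 0.00587), *Sox2* was 1.45-fold higher (0.53, SE 0.14, adjusted p = 0.00961) and *Sox9* differed by 0.37 below background. *Sox11* differed by −0.74 in the same cells (SE 0.32, adjusted p = 0.0807), and its second probe by −0.77 (adjusted p = 0.00674), with no overlap on either probe. All 3 arrays of *Sox7* (−/−) ES cells lay on slide 1 and all 3 of *Sox7* (+/−) ES cells on slide 2, so slide and genotype cannot be told apart within ES cells. In XEN-like cells *Sox9* was lower in *Sox7* (−/−) cells by 0.37 (SE 0.11, adjusted p = 0.0232), and *Sox2* differed by −0.62 with both groups below background, for which no fold is given.

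Whether the 2 genotypes responded differently to Dex was tested as an interaction. *Sox7* and *Sox2* were called, both lower, where 6.62% of all probes tested were called higher and 3.16% lower. The *Sox7* term (log2 difference −1.57, SE 0.28, adjusted p = 0.00291) set a rise in *Sox7* (+/−) cells against an unmeasured gene in *Sox7* (−/−) cells. For *Sox2* it was −1.16 (SE 0.19, adjusted p = 0.00175), the sum of a higher level in *Sox7* (−/−) ES cells and a lower reading below background in *Sox7* (−/−) XEN-like cells. Readings below background moved in the same way for some Sox genes that no array measured, but not for all. Between *Sox7* (+/−) and *Sox7* (−/−) XEN-like cells *Sox8* went from 2.47% ± 0.37 to 1.84% ± 0.31 and *Sox30* from 2.61% ± 0.40 to 1.92% ± 0.33. *Sox14* went the other way, from 2.84% ± 0.64 to 3.24% ± 2.09 (SD, n = 3). The part of this shift in the *Sox2* term was not tested. The *Sox2* term was no longer called with quantile normalization (−0.65, adjusted p = 0.0613), normexp (−0.92) or spike-in scaling (−0.75). Nor was it called in the deposited series table (−0.55) or with slide as a block (−0.93). The last value takes only 1 array of *Sox7* (−/−) XEN-like cells, so it does not show an effect of slide. *Sox9* passed the adjusted p with a difference under 2-fold (−0.74, SE 0.15, adjusted p = 0.00569). For *Sox17* the term was −0.06 (95% interval −0.40 to 0.29, adjusted p = 0.818), so both ends of the interval lay inside 2-fold. *Sox1* had a term of −0.84 (adjusted p = 0.0605), which was called only without replicate 3 of the *Sox7* (+/−) XEN-like cells (−1.11, adjusted p = 0.00148).

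Of the 10 genes, 4 had more than 1 probe. Both *Sox17* probes rose, by 2.46 and 2.43 in *Sox7* (+/−) cells and by 2.41 and 2.46 in *Sox7* (−/−) cells on the log2 scale. Both *Sox11* probes fell to readings below background, by at least 9.52-fold and at least 3.52-fold in *Sox7* (+/−) cells, and by at least 8.20-fold and at least 2.98-fold in *Sox7* (−/−) cells. The 3 *Sox4* probes gave log2 differences from −0.08 to −0.05 in *Sox7* (+/−) cells and from −0.18 to 0.22 in *Sox7* (−/−) cells, none of them called. *Sox1* was the only one whose probes differed in the call.

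**Figure D3:**
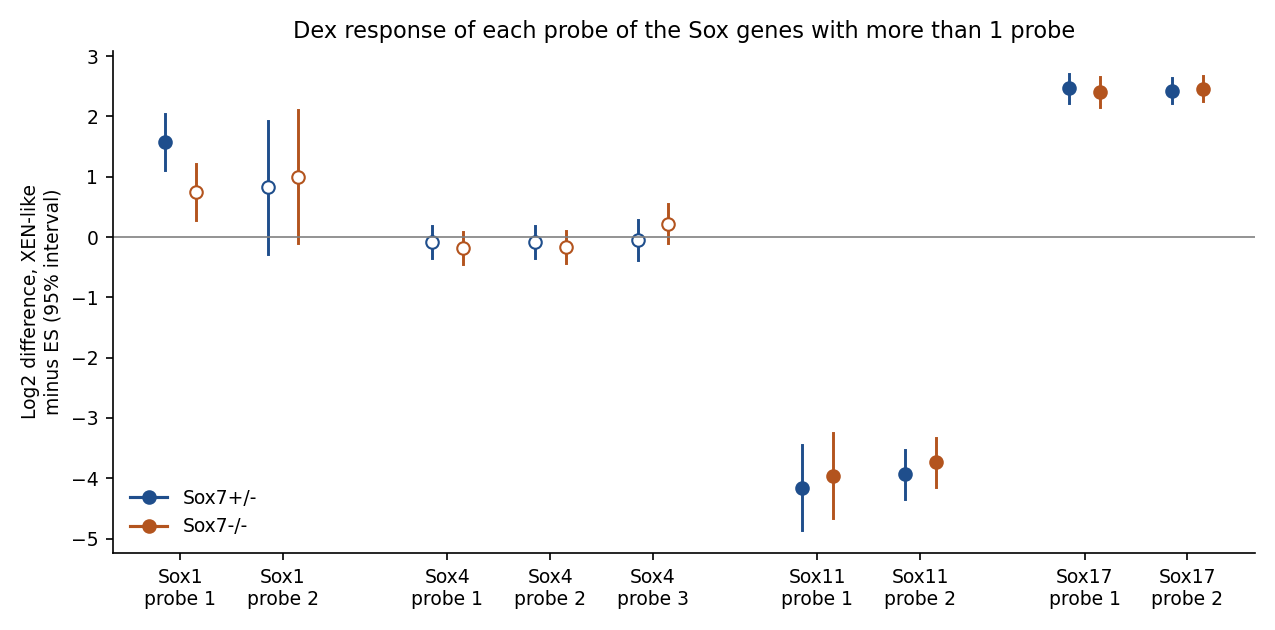
Log2 difference between XEN-like and ES cells (y axis, with its 95% interval) for each probe of *Sox1*, *Sox4*, *Sox11* and *Sox17* in each genotype, with filled points called and probe 1 the brightest. The 2 probes of *Sox17* lie between 2.41 and 2.46 and those of *Sox11*, fitted against readings below background, between −4.16 and −3.73, while only probe 1 of *Sox1* is called, in *Sox7* (+/−) cells.

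Of the 10 other Sox genes on the array, 5 could be tested. *Sox6*, *Sox8*, *Sox14*, *Sox30* and *Sry* were well above background on no array. Of the 5 tested (*Sox5*, *Sox10*, *Sox12*, *Sox13* and *Sox21*), none was called in *Sox7* (+/−) cells and only *Sox12* in *Sox7* (−/−) cells, where it fell by 2.48 on the log2 scale (SE 0.51, adjusted p = 0.00159), or by a factor of at least 1.82, from 13.8% ± 0.96 to 2.76% ± 1.67 (SD, n = 3). Of all probes tested, 11.0% were called higher and 14.0% lower in *Sox7* (+/−) cells, and 14.6% and 14.2% in *Sox7* (−/−) cells. With 5 genes these counts cannot be told from such shares. None of the 5 was called between the genotypes or in the interaction, for which the shares of all probes are given above. The median of these 5 was 0.00 in *Sox7* (+/−) and −0.26 in *Sox7* (−/−) cells. *Sox13*, measured on all 12 arrays, differed by −0.11 and −0.39. *Sox5* was read from its brightest probe at 6496% to 10770% on every array, but all 60 bases of this probe are A or G, with GGA at 16 places, and both other *Sox5* probes were near background, so its level may not be that of *Sox5*.

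The genes on which Sox2 and the SoxF factors are known to act were described by 2 lists taken from general knowledge. Of 8 genes known to be bound by Sox2 with Oct3/4 in ES cells, 7 fell in *Sox7* (+/−) cells and all 8 in *Sox7* (−/−) cells. Of all probes tested, 14.0% and 14.2% were called lower in these comparisons. The median log2 differences of the 8 genes were −4.89 and −4.65, also when genes below background in a group were set at their bounds. *Nanog*, a core pluripotency factor, had falls of at least 499-fold and at least 1333-fold in the 2 genotypes, and those of *Fgf4*, a growth factor gene activated by Sox2 with Oct3/4, were at least 349-fold and at least 739-fold. The 3 *Nanog* probes disagreed. A second probe bounded the fall at 44.4-fold and 132.8-fold, but the remaining one, well above background on all 12 arrays, was called higher in *Sox7* (+/−) cells (log2 difference 1.01, adjusted p = 0.000843) and was 0.69 higher in *Sox7* (−/−) cells (adjusted p = 0.0075). *Lefty1*, an inhibitor of Nodal, fell at least 59.2-fold in *Sox7* (+/−) cells and by 5.96 on the log2 scale in *Sox7* (−/−) cells. *Utf1*, a chromatin factor of ES cells, fell too (log2 differences −5.59 and −5.13). *Pou5f1*, which encodes the Sox2 partner Oct3/4, stayed well above background in all XEN-like arrays, unlike *Sox2*, and fell less (−3.67 and −3.15).

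Of 10 tested genes known as SoxF targets in endoderm or vessels, 5 rose and 3 fell in *Sox7* (+/−) cells. In *Sox7* (−/−) cells 5 rose and 4 were called lower, of which *Cldn5* was below background in both states. Of all probes tested, 11.0% and 14.6% were called higher and 14.0% and 14.2% lower in the 2 genotypes. The median log2 differences of the 10 targets were 1.199 and 1.126, also with genes below background at their bounds. *Vcam1*, a cell adhesion molecule, rose by 6.75 on the log2 scale in *Sox7* (+/−) cells and showed a rise of at least 40.2-fold in the other genotype. *Col4a1*, a chain of basement membrane collagen, rose by 2.44 and 3.14 on the log2 scale. *Robo4*, a receptor of vessels, fell at least 7.90-fold and at least 30.8-fold. *Cldn5*, a tight junction gene of endothelium, fell at least 2.02-fold in *Sox7* (+/−) cells and has no fold in *Sox7* (−/−) cells, and *Foxa1*, an endoderm factor, had a log2 difference of −2.17 and a fall of at least 3.78-fold. The others that rose in *Sox7* (+/−) cells were *Lama1* and *Lamb1*, 2 laminin chains, and *Foxa2*, an endoderm factor. Between the genotypes in XEN-like cells, *Vcam1* was called lower (1067% ± 484 in *Sox7* (+/−) and 366% ± 10.4 in *Sox7* (−/−) cells, SD, n = 3), as was *Cdh5*, an endothelial cadherin (22.3% ± 2.35 and 11.1% ± 2.35). *Foxa1* was also called lower, but it was well above background on 1 of these 6 arrays and its groups overlapped. The other 7 tested targets were not called here, and 3.86% of all probes tested were called higher and 3.63% lower. Between ES cells *Robo4* was called higher and *Vcam1* and *Cldn5* lower, beside 1.94% and 6.66% of all probes tested. *Vcam1* and *Cldn5* were below background in *Sox7* (−/−) ES cells, and *Vcam1* was not called in the interaction.

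**Figure D4:**
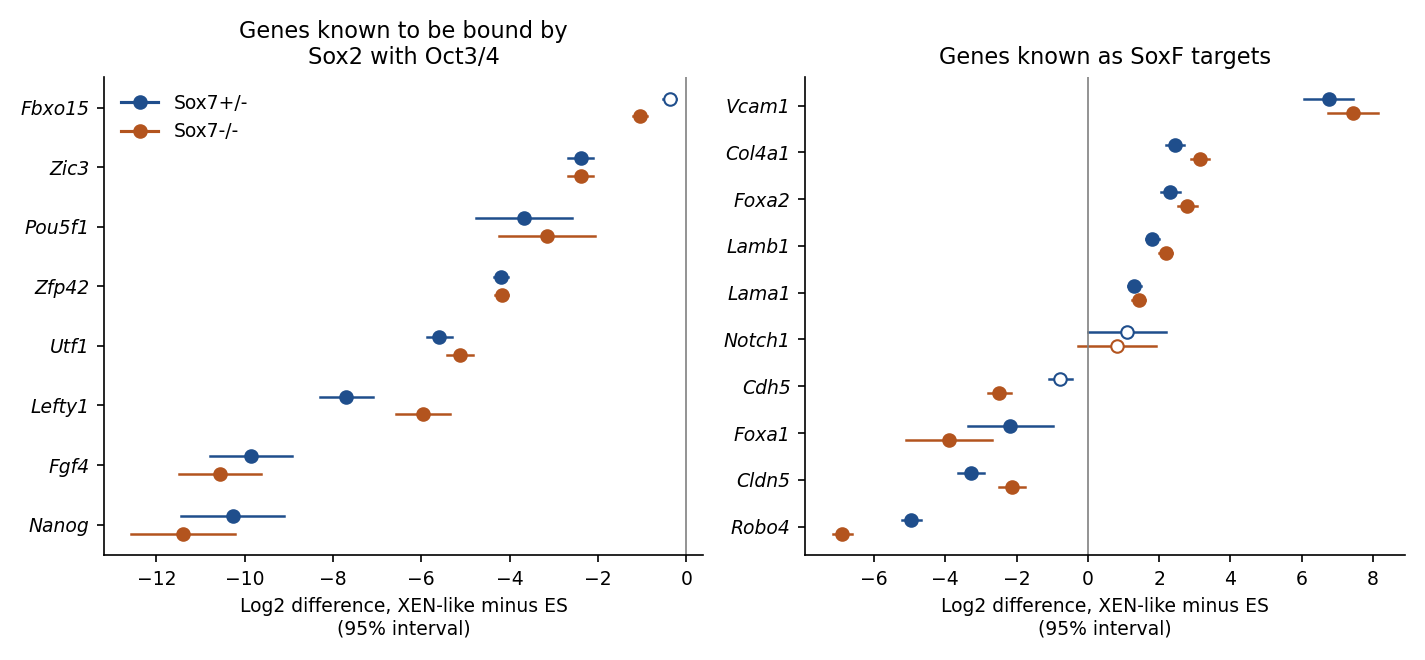
Log2 difference between XEN-like and ES cells (x axis, with its 95% interval) of genes known to be bound by Sox2 with Oct3/4 (left) and of genes known as SoxF targets (right), in *Sox7* (+/−) and *Sox7* (−/−) cells, with each gene read from its brightest probe, filled points called and fitted values shown where 1 or both groups were below background. The left list lies wholly below 0, from −0.38 for *Fbxo15* to −10.27 for *Nanog* in *Sox7* (+/−) cells, and the right list runs from −4.95 for *Robo4* to 6.75 for *Vcam1*.

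Markers of the states the cells could hold were read in the same arrays. Of 9 ES cell markers, 6 fell and 1 rose in *Sox7* (+/−) cells and 7 fell in *Sox7* (−/−) cells, and the *Fgf4* probe and the brightest *Nanog* probe were well above background on no array of XEN-like cells. Of 9 parietal endoderm markers, 8 and 7 rose, and of 7 primitive endoderm markers 4 rose and 1 fell in *Sox7* (+/−) cells and 6 rose in *Sox7* (−/−) cells. Of 6 visceral endoderm markers tested, 2 rose and 3 fell in *Sox7* (+/−) cells and 4 rose and 1 fell in *Sox7* (−/−) cells. The summed level of this list was from 4444% to 5532% in *Sox7* (+/−) and from 15188% to 16611% in *Sox7* (−/−) XEN-like cells. In ES cells it was from 4226% to 4548% and from 3364% to 3562%. Bright probes weigh most in such a sum, here *Ihh* (means 3448% and 8151% in XEN-like cells of the 2 genotypes) and *Amn* (516% and 4675%). Of 5 trophoblast markers, 5 and 3 fell, and of 4 tested markers of definitive endoderm and primitive streak 4 were called lower in *Sox7* (+/−) and 3 in *Sox7* (−/−) cells, where *T* was below background in both states. Of 4 tested endothelial markers 1 rose in both genotypes, and 2 fell in *Sox7* (−/−) cells. The probes of *Kdr* disagreed, and its brightest was called in neither genotype. Its other probe was called lower in *Sox7* (+/−) cells, by at least 3.58-fold (adjusted p = 4.2e-09). In *Sox7* (−/−) cells that probe was called higher, by at least 1.88-fold (adjusted p = 1.76e-09). Over all probes tested, 11.0% were called higher and 14.0% lower in *Sox7* (+/−) cells, and 14.6% and 14.2% in *Sox7* (−/−) cells. Some genes are in both a marker and a target list, so the counts are not separate observations. Among these are *Lama1*, *Lamb1*, *Col4a1*, *Foxa2*, *Foxa1*, *Cdh5*, *Pou5f1*, *Nanog*, *Fgf4* and *Zfp42*. *Gata6* itself read 1307% ± 26.7 and 1633% ± 492 (SD, n = 3) in *Sox7* (+/−) ES and XEN-like cells and 1887% ± 103 and 2430% ± 70.5 in *Sox7* (−/−) ES and XEN-like cells, and *Gata4*, which acts beside it in endoderm, rose by 1.54 and 1.74 on the log2 scale. Whether the *Gata6* probe also reads the transgene was not tested. The part of these differences in cell state in the Sox genes' levels was not tested.

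The genes whose level followed a Sox gene most closely over the 12 arrays were picked by Pearson's r among 12885 gene symbols, as a description, since the 4 groups set most of it. For *Sox2* they were *Stmn2* (r = 0.9998), *Mcf2* (r = 0.9996) and *Camk1d* (r = 0.9995). For *Sox17* they were *St7l* (r = 0.9979), *Svs3a* (r = 0.9974) and *Bmper* (r = 0.9967), and for *Sox7*, with its additional loss in *Sox7* (−/−) cells, *Rwdd1* (r = 0.9958), *Mest* (r = 0.9861) and *Flna* (r = 0.9843). The points share the arrays, the slides and the scaling.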

How the data were processed

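RNA of the 12 samples was hybridized to 1-colour Agilent mouse arrays, and the intensity values deposited by the authors are the output of Feature Extraction 10.7.3.1, background-subtracted and detrended within each array but not scaled between arrays. A series table of intensity values was also deposited, which matched the mean spot signal of the scanner files within 0.498% and was used as an alternative. Outlier spots were left out, except where every spot of a probe was an outlier, as for a flagged probe with 1 spot, which was kept. Spots of a probe were averaged, and the processed signals were put on the log2 scale with the 75th percentile of each array subtracted. The 25938 of 55681 probes that were well above background on all 3 arrays of a group were fitted in 1 model of the 4 group means over all 12 arrays (limma 3.58.1, R 4.3.3), with Benjamini-Hochberg adjustment over all probes, and the fit was tested on simulated data. The study's methods name the same thresholds but other software. The precision is limited by the number of arrays. Probe positions are those of the array files (mm9). Differences between Sox genes were compared under other background corrections, scalings, filters, probe rules and blocks, and without each array in turn. The 10 genes, the marker and target lists and the rule for named genes (all Sox genes, up to 4 called genes of a list with the largest differences, and 3 genes most like *Sox2*, *Sox7* and *Sox17*) were chosen with earlier results of these data known. Promoters of *Sox2*, *Sox7*, *Sox17* and *Sox18* were to be searched, and the 4 other genes with a sequence were added. One gene of the marker and target lists is not reported here and is in none of their counts. Array probe sequences and proteins are not printed here.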

Additional observations from a re-analysis of the deposited data

Results flagged for a closer look

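In limma's test of the difference in Dex response between the genotypes, over all 25938 probes, 3 Sox genes had an adjusted p under 0.05. The share of all probes passing adjusted p alone was not computed, so this count has no background to be read against. The term of each of these 3 genes includes groups whose readings were below background. A difference in response was therefore not measured in full for any of them. For *Sox7* the response in *Sox7* (−/−) minus that in *Sox7* (+/−) cells was −1.57 on the log2 scale (adjusted p = 0.00291), with *Sox7* well above background on none of the 6 arrays of *Sox7* (−/−) cells. For *Sox2* it was −1.16 (adjusted p = 0.00175), with *Sox2* well above background on none of the 6 arrays of XEN-like cells, so the size of both falls is known only as a bound. The *Sox2* term was not called with quantile normalization, normexp, spike-in scaling, the deposited series table or slide as a block. The last of these takes only 1 array of *Sox7* (−/−) XEN-like cells. For *Sox9* it was −0.74 (adjusted p = 0.00569), with *Sox9* well above background on none of the 6 arrays of ES cells, and with quantile normalization it was −0.27 (adjusted p = 0.324).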

How the results depend on the processing

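No called log2 difference of a Sox gene changed sign under any alternative, and 34 differences called under neither setting did. With adjusted p alone, 3 Sox genes differed between the genotypes in XEN-like cells (*Sox2*, *Sox7* and *Sox9*) and 4 in ES cells (these and *Sox1*). The share of all probes passing adjusted p alone was not computed, so these counts have no background to be read against. The *Sox2* difference in XEN-like cells and the *Sox9* difference in ES cells were between readings below background. The deposited series table is neither background-subtracted nor scaled between arrays. In it 5 Sox genes were called for the Dex response in *Sox7* (+/−) cells, without *Sox1*, *Sox7* and *Sox9*. Of all 25938 probes, 855 were called higher and 3488 lower there. For the difference between the genotypes in Dex response 0 Sox genes were called (limma, 3 at unadjusted p under 0.05). Of all probes, 1901 were called higher and 220 lower for it. When only probes well above background on all 12 arrays were tested, which left *Sox1*, *Sox3*, *Sox4* and *Sox17*, 3 were called for the Dex response in *Sox7* (+/−) and 2 in *Sox7* (−/−) cells. In this setting 0 were called between the genotypes in XEN-like cells, in ES cells and for the difference in Dex response. At unadjusted p under 0.05 (limma) these counts were 0, 1 and 1. *Sox7* was not among those tested. Of the 19440 probes tested, 1908 and 2528 were called higher for the Dex response in the 2 genotypes, and 1268 and 1592 lower. In the comparisons with 0 called, 461, 172 and 836 probes were called higher and 469, 683 and 422 lower. For the difference in Dex response, 1 Sox gene (*Sox7*) was called under each of normexp, spike-in scaling and quantile normalization. Of all 25938 probes, 887, 3059 and 1781 were called higher in these settings and 501, 347 and 687 lower. With slide as a block, whose slide term rests on 1 array, *Sox7* was also the only one called. The cause of the loss of *Sox2* in these settings was not tested. Leaving out each array in turn gave 8 to 8, 6 to 6, 1 to 1, 1 to 1 and 2 to 3 Sox genes called in the 5 comparisons, and the 3 arose without *Sox7* (+/−) XEN-like replicate 3.

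With the replicate number of the titles as a replicate block the counts were 8, 6, 1, 1 and 2. In the same order, 2890, 3790, 996, 503 and 1697 of all 25938 probes were called higher and 3622, 3698, 987, 1741 and 815 lower. Deviations of arrays with the same number correlated between −0.05 and 0.12, so no pairing by number was seen. With 3 arrays per group a weak pairing could be missed. Spike-in scaling moved the median log2 difference of all probes from 0.16 to −0.33 in *Sox7* (+/−) and from 0.07 to −0.01 in *Sox7* (−/−) cells. Setting dim values at the lowest signal well above background, which was chosen after seeing the data, left *Sox9* under 2-fold in *Sox7* (−/−) cells (0.39). Within slide 1, which held 3 ES arrays and 1 XEN-like array of *Sox7* (−/−) cells, the Dex response rests on that lone array, assumed to vary like the others. With slide as a block it rests on the same array, and *Sox3* was no longer called there. All 6 arrays of *Sox7* (+/−) cells lay on slide 2, so their Dex response offers no check of slide. The test with only the arrays compared does not exist for the difference in Dex response, which uses them all. The number of arrays and the dim signals of *Sox2*, *Sox9*, *Sox11* and *Sox15* in 1 state limit the sizes given.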
